A study of Mus musculus with 12 samples.

Results

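The mitochondrial fission and fusion genes examined here were 10 genes picked by name from the 28987 genes of the deposited expression table. They were not picked by their values, but earlier results of these data were known when they were chosen. The 7 fission genes were Dnm1l, Fis1, Mff, Mief1, Mief2, Inf2 and Mtfr1, and the 3 fusion genes were Mfn1, Mfn2 and Opa1. All 10 were in the table, and all 10 passed the filter on low values in every comparison. The study profiled RNA from bone marrow of C57BL/6 mice. Haematopoietic stem and progenitor cells (HSPC, named HSCPs in the labels) came from wild type mice, CBL mutant mice, RUNX1 mutant mice and CBL/RUNX1 double mutant mice, and Ly6G+ myeloid cells, the neutrophil lineage, came from wild type and double mutant mice. Each of the 6 groups had 2 libraries, 12 in all, from marrow harvested from individual mice. HSPC were enriched by positive selection for CD117 (the receptor Kit), and mutant cells were sorted by flow cytometry. The labels state neither the age of the mice nor the alleles and how the mutations were introduced.

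Mitochondria form a network that is shaped by division and joining. In fission, the dynamin-related GTPase DRP1, encoded by Dnm1l, is recruited from the cytosol by adaptors on the outer membrane (FIS1, MFF and the products of Mief1 and Mief2) and constricts the organelle. In fusion, the mitofusins MFN1 and MFN2 join the outer membranes and OPA1 joins the inner membranes and shapes the cristae. Stem and progenitor cells of the marrow and mature neutrophils differ in how they use mitochondria, and neutrophils are known for a sparse mitochondrial content and a reliance on glycolysis.

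In the mouse genome (GRCm38), Opa1 and Dnm1l both lie on chromosome 16, and Mtfr1 and Mfn1 both on chromosome 3. In the GENCODE vM21 annotation all are protein coding, with 3 transcripts for Inf2 and Mief2 and up to 16 for Mff. Opa1 covers chr16:29579334-29654884 on the plus strand and Dnm1l covers chr16:16312230-16358959 on the minus strand. Fis1 covers chr5:136953275-136966234 and Inf2 covers chr12:112588784-112615557, both on the plus strand. Mff covers chr1:82724890-82752394, Mief1 chr15:80234018-80253371, Mief2 chr11:60728398-60732951, Mtfr1 chr3:19187327-19220817 and Mfn1 chr3:32529465-32579239, all on the plus strand, and Mfn2 covers chr4:147873599-147904704 on the minus strand. Exons of Dnm1l share 243 bases with the antisense gene Gm49521, exons of Mff share 195 bases with the antisense transcript C430014B12Rik, and exons of Mief1 share 213 bases with AC140267.1 on the same strand, so part of the signal of these 3 genes could not be assigned by position alone. Gene-level values do not separate isoforms.

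Promoter sequences of 4 members are shown because Opa1 and Dnm1l varied most alike of all pairs of members, Inf2 was the member with the widest range, and Fis1 had the highest level. Each is the stretch of 120 bases directly before a start listed by RefSeq (GRCm38.p6), written 5′ to 3′ on the gene's own strand. Capitals mark matches to the motifs searched. The intervals are chr16:29579214-29579333 (plus strand) for Opa1, chr16:16359032-16359151 (minus strand) for Dnm1l, chr5:136953155-136953274 (plus strand) for Fis1 and chr12:112588664-112588783 (plus strand) for Inf2.
Opa1: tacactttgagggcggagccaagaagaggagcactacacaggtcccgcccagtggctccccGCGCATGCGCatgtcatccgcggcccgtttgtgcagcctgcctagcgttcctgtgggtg
Dnm1l: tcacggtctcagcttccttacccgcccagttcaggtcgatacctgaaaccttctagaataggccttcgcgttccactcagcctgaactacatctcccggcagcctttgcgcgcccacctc
Fis1: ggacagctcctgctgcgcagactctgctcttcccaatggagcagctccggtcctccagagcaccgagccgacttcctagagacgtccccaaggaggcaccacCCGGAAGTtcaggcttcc
Inf2: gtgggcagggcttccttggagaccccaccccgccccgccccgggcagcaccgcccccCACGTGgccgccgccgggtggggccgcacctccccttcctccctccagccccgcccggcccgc

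The motifs were GCATGCGC (NRF1), CCGGAAGT (GABP and ETS factors), CACGTG (E-box) and TGTGGT (RUNX core), each searched on both strands over the 250 bases before a start. Of 32851 mouse starts, 2.26% held the NRF1 letters, 2.88% the GABP letters, 6.02% the E-box and 14% the RUNX core. The RefSeq table held 15 starts for 9 members, without Mtfr1. Opa1 held a pair of overlapping matches to the NRF1 letters, on opposite strands. Fis1, Mfn1 and Mief1 held the GABP letters, and Inf2 and Mief2 held the E-box. The RUNX core was in 3 of the 15 starts, a pair of neighbouring Mfn2 starts and the Mief2 start. Both Mfn2 starts shared the same match, which lay 131 bases before the first of them and 168 before the other. A match describes letters only, not a bound site.

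Levels are given as TPM, a share of a library's transcripts corrected for length, after scaling between libraries by trimmed mean factors (TMM, 0.709 to 1.501). Since TPM hold no read numbers, the depth of a library is unknown. The genes S100a8 and S100a9 alone took between 7.23% and 34.5% of a library's TPM. Cbl lay between 25.2 and 37.3 scaled TPM in wild type HSPC and at 72.4 and 79.1 in CBL mutant and 82.3 and 101 in double mutant HSPC. Runx1 was at 15.3 and 15.9 scaled TPM in wild type HSPC and at 127.5 and 47.9 in RUNX1 mutant and 205 and 218 in double mutant HSPC. One library in each of 2 groups stood apart. RUNX1 mutant HSPC replicate 1 had Kit at 172 scaled TPM against 27.7 in replicate 2, and double mutant Ly6G+ replicate 1 had Ly6g at 259 against 1516 in replicate 2. In wild type HSPC, Ly6g was at 579 and 711 scaled TPM, above double mutant Ly6G+ replicate 1. Wild type HSPC carried many neutrophil transcripts, since the summed level of 10 neutrophil markers was between 385530 and 487470 scaled TPM there, against 69426 to 86936 in double mutant HSPC and 504650 to 504960 in wild type Ly6G+ cells. The B and plasma cell markers summed to between 47977 and 58498 scaled TPM in wild type HSPC and to between 39.7 and 43.1 in double mutant HSPC. The single mutants were also lower, at 305 to 568 in CBL mutant and 1907 to 14432 in RUNX1 mutant HSPC. In such bulk samples, fewer cells of a type and less RNA per cell cannot be told apart.

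Dnm1l, the GTPase that carries out fission, was close to constant after scaling in HSPC with no mutation or 1 mutation. As deposited, its means were 16.3 TPM in wild type, 22.2 in CBL mutant and 23.0 in RUNX1 mutant HSPC. Its levels were 21.3 and 21.0 scaled TPM in wild type, 21.9 and 21.6 in CBL mutant and 19.4 and 21.3 in RUNX1 mutant HSPC, and 25.2 and 28.6 in double mutant HSPC. The wild type Ly6G+ libraries were at 12.7 and 11.4, and the double mutant ones at 21.3 and 16.6. Both double mutant HSPC libraries lay above the other 6 HSPC libraries, and both wild type Ly6G+ libraries lay below the other 10. In the order of group means, RUNX1 mutant HSPC overlapped both of its neighbours, wild type HSPC and double mutant Ly6G+ cells.

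The adaptor Fis1 had the highest level of the 10 genes, with a median of 221 scaled TPM over the 12 libraries. It was at 249.5 and 284 scaled TPM in wild type HSPC, at 205 and 209 with the CBL mutation, at 161 and 234 with the RUNX1 mutation and at 172 and 179 in double mutant HSPC, with wild type Ly6G+ cells at 321 and 329 and double mutant Ly6G+ cells at 139 and 279. All 6 mutant HSPC libraries lay below both wild type HSPC libraries. From wild type HSPC downwards, each group overlapped the next in the order of means (double mutant Ly6G+ cells, then CBL mutant, RUNX1 mutant and double mutant HSPC). That order depended on the scaling, because the deposited Fis1 values spanned only 201 to 267 TPM over all 12 libraries, and within HSPC all lay between 201 and 221 TPM.

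Mff, the adaptor with the second highest level, separated the populations more than the genotypes. It ranged from 70.7 to 97.1 scaled TPM over the 8 HSPC libraries and was at 162 and 185 in wild type Ly6G+ cells. The double mutant Ly6G+ libraries were at 90.7 and 160, below both wild type ones, and from there down to double mutant HSPC each group overlapped the next. The related adaptors Mief1 and Mief2 were expressed at similar levels, with medians of 7.68 and 7.56 scaled TPM, but varied differently. After scaling, Mief1 stayed within 6.34 and 8.68 scaled TPM, the narrowest range of the 10 genes (1.37-fold). This ranking depended on the scaling, because the deposited values ran from 4.99 to 11.6 TPM for Mief1 and from 5.79 to 8.21 TPM for Mief2. Mief2 was at 8.24 and 9.17 scaled TPM in wild type HSPC, at 7.79 and 6.59 with the CBL mutation, at 5.65 and 8.60 with the RUNX1 mutation and at 5.71 and 5.09 in double mutant HSPC, with wild type Ly6G+ cells at 10.1 and 9.99 and double mutant Ly6G+ cells at 5.47 and 7.32. After scaling, Mief2 thus had both wild type groups at the top of its order, as Fis1 did. This order too depended on the scaling, because the deposited mean of Mief2 in wild type HSPC was 6.68 TPM, below those of CBL mutant HSPC (7.35), RUNX1 mutant HSPC (7.84) and double mutant Ly6G+ cells (7.60).

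Inf2, a formin that assembles actin where the endoplasmic reticulum meets mitochondria before fission, had the widest range (3.31-fold). Its levels were 9.19 and 7.54 scaled TPM in wild type, 5.89 and 7.72 in CBL mutant, 5.30 and 5.11 in RUNX1 mutant and 10.8 and 11.7 in double mutant HSPC. The wild type Ly6G+ libraries were at 3.54 and 3.65, and the double mutant ones at 8.38 and 6.94. After scaling, the RUNX1 mutant libraries were the lowest HSPC and the double mutant libraries the highest. Wild type HSPC, double mutant Ly6G+ cells and CBL mutant HSPC overlapped as neighbours in the order of means. As deposited, Inf2 in RUNX1 mutant HSPC (7.07 and 4.84 TPM) overlapped wild type HSPC (7.64 and 5.35 TPM). Mtfr1, a regulator of fission, was at 26.1 and 22.4 scaled TPM in wild type Ly6G+ cells and between 13.3 and 17.6 in all other libraries. This separation depended on the scaling. The deposited values were 20.9 and 17.7 TPM in wild type and 23.4 and 16.1 TPM in double mutant Ly6G+ cells, with 19.4 TPM in RUNX1 mutant HSPC replicate 1.

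Among the fusion genes, Opa1 was at 19.5 and 17.9 scaled TPM in wild type, 17.9 and 18.0 in CBL mutant, 16.8 and 17.9 in RUNX1 mutant and 24.6 and 30.6 in double mutant HSPC. The wild type Ly6G+ libraries were at 12.9 and 13.1, and the double mutant ones at 19.0 and 15.4. As for Dnm1l, the double mutant HSPC stood highest and the wild type Ly6G+ cells lowest, and the other 6 HSPC libraries lay between 16.8 and 19.5. Mfn1 was at 10.3 and 12.6 scaled TPM in wild type, 10.1 and 9.46 in CBL mutant, 12.96 and 10.5 in RUNX1 mutant and 16.1 and 15.7 in double mutant HSPC. Of the Ly6G+ libraries, the wild type ones were at 8.63 and 11.5 and the double mutant ones at 11.6 and 14.4, so only the double mutant HSPC lay above all other libraries. Mfn2, which also tethers mitochondria to the endoplasmic reticulum, was at 29.4 and 27.4 scaled TPM in wild type, 21.4 and 25.8 in CBL mutant, 25.0 and 31.1 in RUNX1 mutant and 28.9 and 42.8 in double mutant HSPC, with wild type Ly6G+ cells at 25.8 and 24.3 and double mutant Ly6G+ cells at 15.8 and 25.7. The double mutant HSPC libraries differed from each other more in Mfn2 than in any other member (0.55 on the log2 scale), and overlapped the wild type range. For Mfn2 every group overlapped the next in the order of means, and for Mfn1 so did every group from double mutant Ly6G+ cells downwards.

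**Figure D1:**
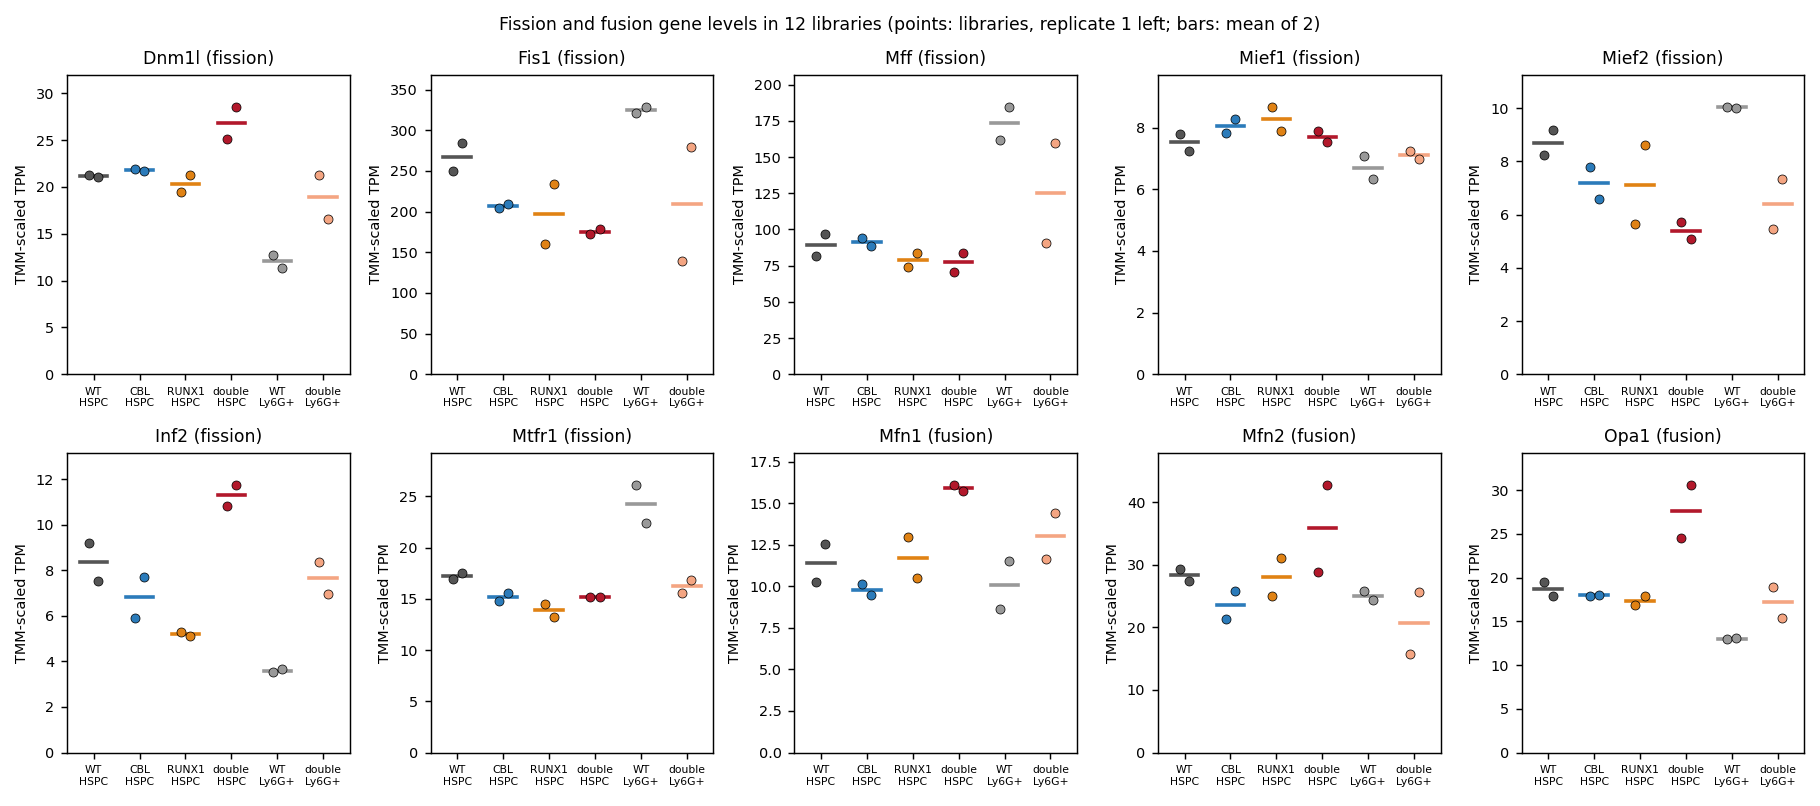
TMM-scaled TPM (linear axis from 0) of the 10 genes in each of 6 groups. Points are single libraries with replicate 1 on the left, and bars are means of 2 libraries. Dnm1l, Inf2, Mfn1 and Opa1 are highest in double mutant HSPC, and Mff and Mtfr1 are highest in wild type Ly6G+ cells. As deposited, the means of Mff and Mtfr1 were higher in double mutant Ly6G+ cells (144 and 19.8 TPM) than in wild type ones (137.5 and 19.3 TPM).

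After scaling, Opa1, Mfn1, Inf2 and Dnm1l were higher in double mutant than in wild type HSPC, with no overlap between the groups. Fis1, Mief2 and Mtfr1 were lower, also with no overlap. With unscaled TPM the differences of Fis1 and Mtfr1 turned positive. The Mief2 groups then overlapped (wild type 6.85 and 6.51 TPM, double mutant 7.14 and 5.79 TPM). With scaled TPM, none of the 10 genes passed the test. The closest to the threshold was Opa1, with a log2 difference of 0.53 ± 0.14 (SE, n = 2 against 2; limma, adjusted p = 0.0525). Mfn1 differed by 0.45 ± 0.16 (limma, adjusted p = 0.0950) and Dnm1l by 0.33 ± 0.12 (limma, adjusted p = 0.104). On the low side, Fis1 differed by -0.60 ± 0.19 (limma, adjusted p = 0.0786) and Mief2 by -0.60 ± 0.21 (limma, adjusted p = 0.0968). Inf2 differed by 0.40 ± 0.18 and Mfn2 by 0.30 ± 0.21, with limma adjusted p = 0.161 and 0.351.

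Of the 12318 genes tested in this comparison, limma called 11.4% at an adjusted p under 0.05, against 0 of the 10 members, and 5 members had an unadjusted p under 0.05, against 34.1% of all genes. Groups that did not overlap were found for 36.3% of all genes in the higher and 35% in the lower direction, against 4 and 3 of the 10 members, so these shares were near the background. The RUNX1 mutant libraries, which shared the fit, changed the calls. Without RUNX1 mutant HSPC replicate 1, Opa1, Mfn1 and Dnm1l rose (limma adjusted p = 0.0161, 0.0291 and 0.0449) and Fis1 and Mief2 fell (adjusted p = 0.00700 and 0.0147), while the whole-table count went from 1408 to 4377 of 12166 genes. The same 5 genes passed without replicate 2 in its place, among 4377 of 12235 genes, and with the wild type and double mutant groups fitted alone, among 4619 of 11629. In the same comparison 8 of 10 neutrophil markers fell, with a median log2 difference of -2.59. Of the other markers, 3 of 6 B and plasma cell genes, 1 of 4 tested T and natural killer cell genes and 1 of 6 erythroid genes fell, 1 of 8 HSPC and 1 of 5 monocyte genes rose, and Cd3e and Cd3g of the T cell markers were at 0 in double mutant HSPC. The part of these markers in the members' differences was not tested.

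Neither single mutation gave a member that passed, measured against the same wild type libraries. In CBL mutant HSPC, 0 of the 10 members passed (limma, background 0.56%) and 0 had an unadjusted p under 0.05, against 10.8% of all genes. Opa1 differed by -0.05 ± 0.14, Mfn1 by -0.19 ± 0.16 and Fis1 by -0.36 ± 0.19 on the log2 scale. Left unscaled, these differences were positive, at 0.34, 0.18 and 0.048. Of the markers, 2 of 6 B and plasma cell genes and 1 of 5 megakaryocyte genes fell, and 3 of 4 tested T and natural killer cell genes rose. The part of these markers in the members' differences was not tested. In RUNX1 mutant HSPC, again 0 members passed (limma, background 0.0487%), and 3 members had an unadjusted p under 0.05, against 16.6% of all genes. These were Inf2 at -0.59 ± 0.18, Fis1 at -0.46 ± 0.19 and Mtfr1 at -0.29 ± 0.12, all on the low side, with limma adjusted p between 0.241 and 0.299. Left unscaled, the Fis1 and Mtfr1 differences were positive and that of Inf2 was -0.11. Without RUNX1 mutant HSPC replicate 2, 1 member, Fis1, passed as lower, among 3627 of 12235 genes.

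Against RUNX1 mutant HSPC, Inf2 and Opa1 rose in the double mutants. Inf2 was higher by 0.99 ± 0.18 on the log2 scale (SE; limma, adjusted p = 0.0262), a 1.98-fold difference, and both double mutant libraries lay above both RUNX1 mutant libraries. Opa1 was higher by 0.63 ± 0.14 (limma, adjusted p = 0.0400), or 1.55-fold. These were 2 of 10 members, against 9.16% of all genes in either direction and 5.93% in the higher one. The difference of Dnm1l was 0.38 ± 0.12 (limma, adjusted p = 0.0872) and that of Mfn1 0.42 ± 0.16 (adjusted p = 0.135). In this comparison 1 of 10 neutrophil and 2 of 6 B and plasma cell markers fell and 1 of 5 monocyte markers rose, and the neutrophil markers summed to 107270 and 325280 scaled TPM in the RUNX1 mutant libraries. The part of these markers in the result was not tested. Both calls were lost in the limma fit of these groups alone (adjusted p = 0.160 for Inf2 and 0.188 for Opa1), with TPM left unscaled, without the filter, and without either wild type or either double mutant HSPC library or CBL mutant HSPC replicate 2. Without CBL mutant HSPC replicate 1 the count was 1, since Opa1 was lost. Without RUNX1 mutant HSPC replicate 1, 4 members passed, with Mfn1 higher and Mief2 lower added, among 3543 of 12166 genes. Without replicate 2 in its place 3 passed, with Dnm1l higher added, among 2500 of 12235 genes.

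Against CBL mutant HSPC, 0 of the 10 members passed in the double mutants (limma, background 3.7%), and 5 had an unadjusted p under 0.05, against 25.9% of all genes. All 3 fusion genes were on the high side without overlap, as were 34.1% of all genes, Opa1 by 0.58 ± 0.14, Mfn1 by 0.65 ± 0.16 and Mfn2 by 0.56 ± 0.21, with limma adjusted p between 0.0645 and 0.155. Inf2 was higher by 0.66 ± 0.18 (limma, adjusted p = 0.0813). Without either RUNX1 mutant HSPC library, Inf2, Mfn1 and Opa1 passed as higher, as 3 of 10 members, among 2868 of 12166 genes without replicate 1 and 2878 of 12235 without replicate 2, so that this share was near the background there. In this comparison 2 of 10 neutrophil markers, 2 of 6 B and plasma cell markers and all 4 tested T and natural killer cell markers fell, and 1 of 5 monocyte and 1 of 5 megakaryocyte markers rose, and their part in the members' differences was not tested. The departure from additivity of the mutations was called for 0 of 10 members (limma, background 0.0162%), with an unadjusted p under 0.05 for 3, against 19.4% of all genes. Inf2 had the largest such term, 1.25 ± 0.25 (limma, adjusted p = 0.112). After scaling, its mean was lower in each single mutant and higher in the double mutant than in wild type HSPC. Left unscaled, its log2 difference of CBL mutant from wild type HSPC was 0.094. Without RUNX1 mutant HSPC replicate 1 the count was 1, Inf2, among 1130 of 12166 genes, and without replicate 2 it was 2, Inf2 and Opa1, among 1995 of 12235 genes, near the background in both.

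**Figure D2:**
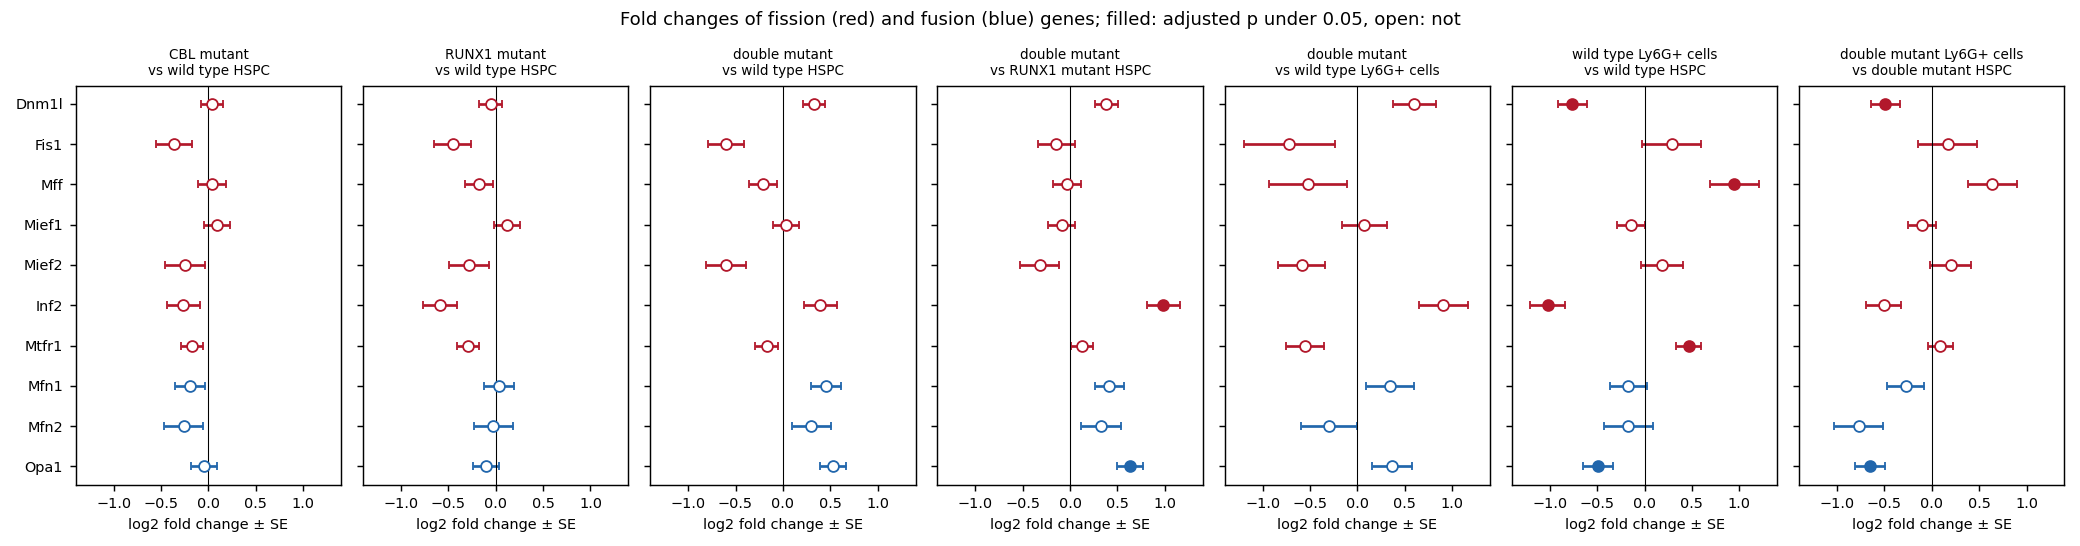
Log2 fold changes (points) with SE (bars) of the 10 genes in 7 comparisons, fission genes in red and fusion genes in blue. Filled points passed an adjusted p under 0.05 in limma. Filled points are Inf2 and Opa1 in double against RUNX1 mutant HSPC, 5 genes between wild type populations and 2 between double mutant populations.

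In Ly6G+ cells after scaling, Dnm1l, Inf2, Mfn1 and Opa1 were higher in both double mutant libraries than in both wild type libraries. Fis1, Mff, Mief2 and Mtfr1 were lower in both. Such separation was found for 33.1% of all genes in the higher and 29.2% in the lower direction. As deposited, the higher genes stayed apart, but the groups overlapped for Fis1, Mff, Mief2 and Mtfr1. Deposited Fis1 values were 257 and 259 TPM for the wild type and 209 and 267 TPM for the double mutant. For Mief2 they were 8.04 and 7.87 TPM, then 8.21 and 6.99 TPM. Left unscaled, the mean differences of Mff and Mtfr1 were slightly positive. Inf2 differed by 0.91 ± 0.26 on the log2 scale (SE, n = 2 against 2; limma, adjusted p = 0.328) and Dnm1l by 0.60 ± 0.23 (adjusted p = 0.355). Fis1 differed by -0.72 ± 0.48 (limma, adjusted p = 0.437) and Mtfr1 by -0.55 ± 0.20 (adjusted p = 0.353). With limma, 0 of the 10 members and 0 of all 11920 genes passed (0%), and at an unadjusted p under 0.05 there were 2 members, Inf2 and Mtfr1, against 14.1% of all genes.

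The double mutant Ly6G+ libraries differed widely from each other. The SD over all genes of the log2 difference between the replicates was 1.0 there and 0.363 in wild type Ly6G+ cells, and Fis1 differed by 1.002 between the double mutant replicates. In replicate 1 the neutrophil markers summed to 56757 scaled TPM, against 326070 in replicate 2. Without replicate 2, so with replicate 1 alone for the double mutant, 8 of 10 members passed among 7119 of 11604 genes. Without replicate 1, 0 members passed among 1179 of 11530 genes. The term for a different effect of the double mutation in Ly6G+ cells and HSPC was called for 0 of 10 members (limma, background 0.0689%), and 0 had an unadjusted p under 0.05, against 9.91% of all genes. Its largest values were -0.60 ± 0.36 for Mfn2 and 0.51 ± 0.26 for Inf2.

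Between the wild type populations, 5 of the 10 members changed, against 39.8% of the 13059 genes tested. Dnm1l, Inf2 and Opa1 were lower in Ly6G+ cells (background 22.9%), and Mff and Mtfr1 were higher (background 16.9%), so genes of the fission machinery changed in both directions. Inf2 fell by 1.02 ± 0.19 on the log2 scale (SE, n = 2 against 2; limma, adjusted p = 0.00396), Dnm1l fell by 0.77 ± 0.15 (adjusted p = 0.00559) and Opa1 fell by 0.49 ± 0.16 (adjusted p = 0.0352). Mff rose by 0.95 ± 0.25 (limma, adjusted p = 0.0184) and Mtfr1 by 0.47 ± 0.13 (adjusted p = 0.0232). The groups of each of these 5 genes did not overlap, as for 84.7% of all genes. For Mfn1 and Mfn2 the differences were both -0.17, with SEs of 0.19 and 0.26, and neither passed.

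These wild type calls had 2 libraries on each side. Without either wild type HSPC library or Ly6G+ replicate 1, 2 of the 5 remained, Dnm1l and Inf2, and without Ly6G+ replicate 2 only Inf2 did. The call of Opa1 was also lost with other scalings, at a limma adjusted p of 0.0638 with RLE factors and 0.0553 with upper-quartile factors, and without either CBL mutant HSPC library (0.0565 and 0.0567). With TPM left unscaled, Mff was the 1 member called, although all 5 kept their direction. Of the markers, 3 of 10 neutrophil genes and 3 of 6 B and plasma cell genes were higher in the Ly6G+ cells and 1 of 8 HSPC genes was lower. Of the T and natural killer cell genes 3 of 6 were higher and 1 was lower, and 1 of 5 monocyte genes and 1 of 4 mast cell and basophil genes were higher. The neutrophil transcripts in the wild type HSPC libraries were given above, and the part of these markers in the differences was not tested.

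In double mutants, Dnm1l and Opa1 were lower in Ly6G+ cells than in HSPC. On the log2 scale Dnm1l fell by 0.49 ± 0.15 (SE; limma, adjusted p = 0.0421) and Opa1 fell by 0.65 ± 0.16 (adjusted p = 0.0158). These were 2 of 10 members, against 28.8% of all genes tested in either direction and 16.4% in the lower one. Mfn2 differed by -0.77 ± 0.26 (limma, adjusted p = 0.0538), Inf2 by -0.51 ± 0.19 (adjusted p = 0.0719) and Mff by 0.64 ± 0.25 (adjusted p = 0.0903). In the fit of these groups alone, and without double mutant HSPC replicate 2, 0 passed. Without double mutant Ly6G+ replicate 1, the library low in Ly6g, 5 passed, namely Dnm1l, Opa1 and Inf2 lower and Mff and Fis1 higher, among 6484 of 12901 genes, so that this share was near the background. The call of Dnm1l was also lost without any 1 of the 4 wild type libraries, either CBL mutant HSPC library or double mutant HSPC replicate 1, where the count was 1, and without double mutant Ly6G+ replicate 2. Unscaled TPM called Mff and Mfn2 and neither Dnm1l nor Opa1. Between these populations 6 of 10 neutrophil markers were higher in the Ly6G+ cells, as were 2 of 5 monocyte, 2 of 6 B and plasma cell, 2 of 6 T and natural killer cell and 1 of 5 megakaryocyte markers, and 1 of 8 HSPC markers was lower. The part of these markers in the result was not tested.

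The mean level of the fission genes relative to that of the fusion genes was lowest in double mutant HSPC, where it lay below that of the fusion genes. The measure was the mean log2(scaled TPM + 1) of the 7 fission genes minus that of the 3 fusion genes in the same library, which hardly moves with the scaling between libraries. Wild type HSPC had 0.41 and 0.43, CBL mutant HSPC 0.48 and 0.45, RUNX1 mutant HSPC 0.14 and 0.26, and double mutant HSPC -0.02 and -0.24. Wild type Ly6G+ cells had 0.76 and 0.62, and double mutant Ly6G+ cells 0.43 and 0.45. The group means were 0.42 ± 0.014, 0.46 ± 0.021, 0.20 ± 0.083 and -0.13 ± 0.15 in the HSPC groups in that order, and 0.69 ± 0.097 and 0.44 ± 0.0091 in wild type and double mutant Ly6G+ cells (SD, n = 2 each).

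Both RUNX1 mutant libraries thus lay below the wild type and CBL mutant HSPC, and both double mutant libraries lay below all other libraries. In Ly6G+ cells the double mutants were also below the wild type. No test was run on this score. Its level depended on Fis1, and without that gene the values were -0.14 and -0.15 in wild type HSPC and -0.50 and -0.72 in double mutant HSPC, with the same order of these groups. After scaling, the mean of the fission genes differed little, at 4.67 and 4.70 in wild type HSPC against 4.54 and 4.60 in double mutant HSPC. The mean of the fusion genes was 4.26 and 4.27 against 4.56 and 4.83. The median log2 difference between double mutant and wild type HSPC was -0.17 over the fission genes and 0.45 over the fusion genes, beside 0.02 over all genes tested. Left unscaled, these medians were 0.42, 1.04 and 0.56, so how the score divided between fission and fusion genes depended on the scaling.

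**Figure D3:**
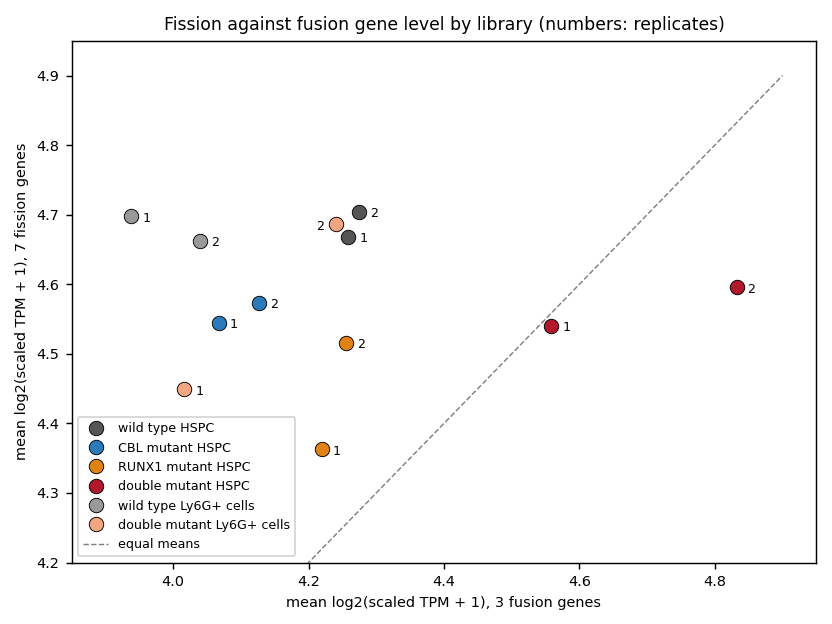
Mean log2(scaled TPM + 1) of the 7 fission genes (vertical axis) against that of the 3 fusion genes (horizontal axis). Each point is 1 library, numbered by replicate and coloured by group, and the dashed line marks equal means. The double mutant HSPC libraries lie on or below the line, at -0.02 and -0.24, and the other 10 lie above it.

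Ratios between members within a library do not depend on the scaling. The ratio of Dnm1l to Opa1 stayed between 0.871 and 1.22 in all 12 libraries, although each gene ranged over more than 2-fold. This pair varied most alike of all pairs of members in these same libraries, so its steady ratio is not a separate result. The ratio of the adaptor Mff to its partner Dnm1l was between 2.81 and 4.62 in the 8 HSPC libraries. It was 12.8 and 16.2 in wild type Ly6G+ cells and 4.27 and 9.63 in double mutant Ly6G+ cells. Fis1 over Dnm1l was also highest in wild type Ly6G+ cells, with 6.25 to 13.5 in HSPC, 25.3 and 28.9 in wild type Ly6G+ cells and 6.54 and 16.8 in double mutant Ly6G+ cells, whose libraries spanned the wild type HSPC values of 11.7 and 13.5. Within HSPC both adaptor ratios were lowest in the double mutants, at 2.81 and 2.93 for Mff and 6.83 and 6.25 for Fis1. The ratio of Mfn2 to Mfn1 ranged from 1.36 to 2.995, and Mfn2 was the more abundant mitofusin transcript in every library.

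**Figure D4:**
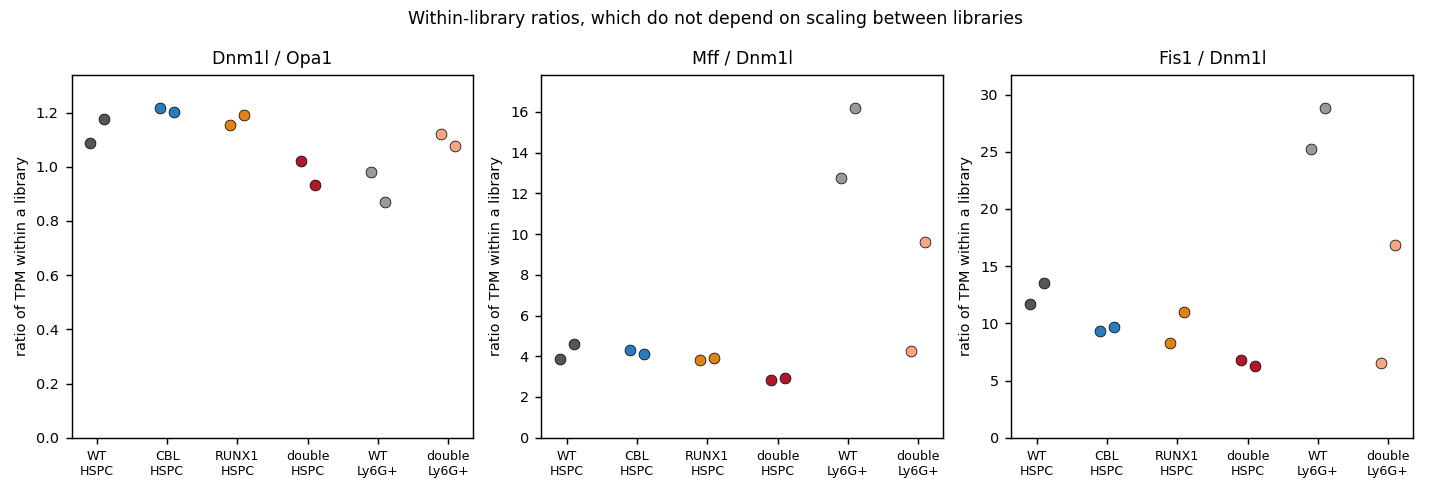
Ratios of TPM within each library (linear axes from 0) for Dnm1l over Opa1, Mff over Dnm1l and Fis1 over Dnm1l, with 2 points per group and replicate 1 on the left. The first ratio stays between 0.871 and 1.22, and the other two are highest in wild type Ly6G+ cells, at 12.8 and 16.2 and at 25.3 and 28.9.

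The size of these differences depended on the scaling. Without scaling, the median log2 difference from wild type over all genes was 0.56 for double mutant, 0.33 for CBL mutant and 0.45 for RUNX1 mutant HSPC, and 0.58 for double mutant Ly6G+ cells, against values between -0.04 and 0.05 after scaling. In the unscaled double mutant HSPC, Opa1, Mfn1 and Mfn2 differed by 1.14, 1.04 and 0.91 and Fis1 and Mief2 by 0.03 and -0.05. Relative to the median of all genes, the fusion genes were on the high side and Fis1, Mief2, Mff and Mtfr1 on the low side under both. Apart from the pseudocount and the filter, scaling moves all genes of a library alike, so this position could not differ. Without scaling, limma called 5 members, Dnm1l, Inf2, Mfn1, Mfn2 and Opa1, all higher, among 4382 of 12421 genes.

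**Figure D5:**
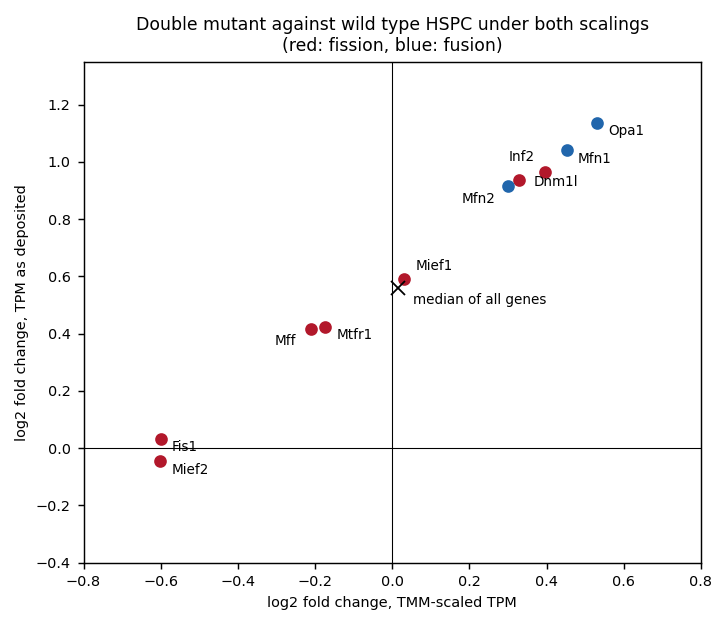
Log2 fold changes of the 10 genes in double mutant against wild type HSPC, from TMM-scaled TPM (horizontal axis) and from TPM as deposited (vertical axis), with fission genes in red and fusion genes in blue. The cross marks the median of all genes, at 0.02 and 0.56. Opa1, Mfn1 and Mfn2 lie above it on both axes, and Fis1, Mief2, Mff and Mtfr1 lie below it on both. Scaling moves all genes of a library alike, so it could hardly alter these positions.

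Accessory genes of the same processes were also followed. Of 15 tested accessory fission genes and 9 accessory fusion genes, which include the proteases that process OPA1, 0 passed in limma in double mutant against wild type HSPC (background 11.4%), and 4 and 3 had an unadjusted p under 0.05 (background 34.1%). Parl, an inner membrane rhomboid protease, differed by 0.50 ± 0.14 (limma, adjusted p = 0.0586) and Afg3l2, a subunit of the matrix-facing AAA protease, by 0.39 ± 0.13 (adjusted p = 0.0904). Against RUNX1 mutant HSPC both rose, Parl by 0.82 ± 0.14 (limma, adjusted p = 0.0232) and Afg3l2 by 0.72 ± 0.13 (adjusted p = 0.0272), the 2 of 9 accessory fusion genes called there, against 5.93% of all genes in the higher direction.

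Between the wild type populations, 4 of 9 accessory fusion genes fell in Ly6G+ cells, against 22.9% of all genes, and none rose, against 16.9%. Parl fell by 1.999 ± 0.15 (limma, adjusted p = 0.000320) and Stoml2, a membrane scaffold protein, fell by 1.06 ± 0.21 (adjusted p = 0.00570), beside Afg3l2 and Pld6. Of the 15 accessory fission genes, with the same backgrounds, Mtfr2, Mtfp1, Pgam5 and Akap1 fell and Rala, a small GTPase, rose by 1.06 ± 0.23 (limma, adjusted p = 0.00851). The median difference was -0.76 over the accessory fusion genes and -0.08 over the accessory fission genes, against -0.08 over all genes. In double mutants the same 4 of 9 accessory fusion genes fell in Ly6G+ cells, against 16.4% of all genes, with Parl at -2.15 ± 0.15 (limma, adjusted p = 0.000275).

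Genes of protein import, channels and the matrix, often used as a gauge of mitochondrial content, formed a further list. Of 12 tested, 7 fell in wild type Ly6G+ cells against wild type HSPC, against 22.9% of all genes, with a median of -0.86 over the list and -0.08 over all genes. Among them were Tomm40, the outer membrane import channel (-1.64 ± 0.15; limma, adjusted p = 0.000527), and Hspd1, a matrix chaperone (-1.41 ± 0.17; adjusted p = 0.000906). In double mutant against wild type HSPC, Tomm40 rose by 0.88 ± 0.13 (limma, adjusted p = 0.0180) as the 1 of 12 that passed, against 11.4% of all genes in either direction, with a median of 0.28 over the list. Against RUNX1 mutant HSPC, 4 of 12 rose, Tomm40, Hspd1, Timm23 and Tomm70a, against 5.93% of all genes, with a median of 0.50. Whether the members moved apart from these genes was not tested.

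By root mean square distance of centred log2 levels over the 12 libraries, Dnm1l and Opa1 were the closest of the 45 pairs of members (0.141), followed by Fis1 and Mief2 (0.171), and Mff and Inf2 were the farthest (0.823). Among the 7830 genes that averaged 3 or more on the log2 scale, the genes nearest to Dnm1l were Eif3a (0.0638), Eif3h (0.0716) and Nup88 (0.0862). Those nearest to Opa1 were Eif3c (0.0827), Slc25a3 (0.0886) and Pom121 (0.0974). Stk24, Rtn3 and Cpne1 were nearest to Fis1 (0.0844 to 0.0941), Dnttip2, Plekha3 and Tbc1d22a to Mfn1 (0.116 to 0.154), and Sel1l, Ogdh and Dctn1 to Mfn2 (0.102 to 0.122). The median distance of all genes from these 5 members was between 0.464 and 0.565.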

How the data were processed

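RNA sequencing was deposited as 1 table of 12 libraries. Per the submitters' processing notes, bcl2fastq, CASAVA 1.8, kallisto and mm10 were used, and the kallisto version, annotation and transcript-to-gene step are not given in the sources used here. The authors deposited TPM, although the table is named as counts: values are not whole and each library sums to between 933370 and 981994. A symbol was found for 27458 of 28987 identifiers.

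Here TPM were scaled by trimmed mean factors (TMM, trimming 0.3 of log ratios and 0.05 of levels), and log2(scaled TPM + 1) was tested with limma 3.58.1 (R 4.3.3; trend and robust moderation) on genes with at least 1 scaled TPM in at least 2 libraries of the fit. Fold changes are on that scale, and the pseudocount of 1 understates those of low genes. The 8 HSPC libraries shared 1 fit (4 residual degrees of freedom), the 4 Ly6G+ libraries another (2), and comparisons between populations used all 12 (6). Groups were the only terms. Two-sided p-values were Benjamini-Hochberg adjusted over every gene of a comparison and called under 0.05. Nothing in the labels beyond harvest from individual mice describes the replicates, so p-values measure the spread between these libraries. The script was tested on simulated data.

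The members, gene lists and motifs were chosen with earlier results of these data known. All members are named, with the 3 most similar genes for 5 of them, and list genes that passed, up to 4 a direction by smallest p, or else the 2 with the smallest p. Alternatives were other scalings, pseudocounts, filters, moderation, a replicate block, the compared groups alone and each library left out. Added after seeing the data was leaving out both libraries that stand apart. Figures used matplotlib 3.10.9.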

Additional observations from a re-analysis of the deposited data

How the results depend on the processing

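No member's call changed direction. The number of members called in double mutant against wild type HSPC was 0, and it was 1 with upper-quartile factors or a stricter filter of 5 scaled TPM, and 5 with unscaled TPM, with the compared groups alone or without both libraries that stand apart; leaving out 1 library gave 0 to 5. Against CBL mutant HSPC it was 3 with the compared groups alone or without both libraries that stand apart, and 0 to 3 leaving out 1. Against RUNX1 mutant HSPC (2) it was 0 with unscaled TPM, no filter or the compared groups alone, 1 without trend and robust moderation, 4 without both, and 0 to 4 leaving out 1. It ranged from 0 to 1 in RUNX1 mutant HSPC and from 0 to 2 for the non-additive term, which gave 1 without both. In double mutant Ly6G+ cells the range was 0 to 8. Between wild type populations (5) unscaled TPM gave 1, RLE or upper-quartile factors 4 (Opa1 lost), leaving out both libraries that stand apart 6 (Fis1 added), and leaving out 1 library 1 to 5. Between double mutant populations (2) it was 1 with RLE factors, no filter or no trend and robust moderation, 0 with the compared groups alone, 5 without both, and 0 to 5 leaving out 1. The counts of CBL mutant HSPC and of the interaction stayed at 0 in every alternative run. In every comparison, leaving out both libraries that stand apart also raised the share of all genes called. Those member counts are therefore not a result about the members. The cause of the shifts in these counts was not tested. Where leaving out a library left 1 in a group, that library was taken to vary like the other groups.

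The labels do not say that replicate numbers pair the samples, and they were not taken as pairs because the correlation of deviations was not over 0.1 in every pair of groups: it ran from -0.02 to 0.46 over 15 pairs, with 6 over 0.1, the highest between RUNX1 mutant HSPC and double mutant Ly6G+ cells. With the number as a replicate block, the count between double mutant populations was 4 (Mff and Mfn2 added), among 4068 of 13059 genes. That against RUNX1 mutant HSPC was 2, among 1366 of 12318 genes, and that between wild type populations 5, among 5557 of 13059. The other counts were 0. The fission minus fusion level was 0.45 in wild type HSPC with a pseudocount of 5. It was 0.42 and 0.48 in double mutant Ly6G+ cells with pseudocounts of 0.1 and 5. In the other groups it moved by less than 1 SD with other scalings and pseudocounts, although scaling hardly moves this score. Leaving out 1 of 2 libraries cannot move a mean by 1 SD, so it was no check. TPM give no depth, so the counting error of low genes such as Inf2 and Mief2 is not known.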

Other observations

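Genes of mitochondrial transport, mitophagy and biogenesis also differed, with the same libraries and limits. In double mutant against wild type HSPC, Trak2, a motor adaptor, fell by 0.61 ± 0.14 on the log2 scale (SE; limma, adjusted p = 0.0425) and Rhot2, an outer membrane GTPase that binds it, fell by 0.47 ± 0.12 (adjusted p = 0.0482), as 2 of 6 transport genes, against 11.4% of all genes called in either direction. Of 10 mitophagy genes tested, Optn, a receptor for ubiquitin-marked mitochondria, fell by 1.72 ± 0.13 (limma, adjusted p = 0.00165) and Gabarapl2 fell by 0.79 ± 0.16 (adjusted p = 0.0311), whereas Phb2, an inner membrane prohibitin, rose by 0.65 ± 0.13 (adjusted p = 0.0315). Optn was also lower against CBL mutant HSPC, by -0.97 ± 0.13 (limma, adjusted p = 0.0163), and against RUNX1 mutant HSPC, by -1.60 ± 0.13 (adjusted p = 0.00636). Ppargc1b, a coactivator of mitochondrial biogenesis, rose by 1.45 ± 0.28 (limma, adjusted p = 0.0287) as the 1 of 9 biogenesis genes called. These shares of the lists stand beside the same 11.4%. Trak2 and Rhot2 were also on the low side in CBL mutant against wild type HSPC, without passing. There Trak2 differed by -0.73 ± 0.14 and Rhot2 by -0.41 ± 0.12 (limma, adjusted p = 0.117 and 0.294). In RUNX1 mutant against wild type HSPC, Trak2 differed by -0.47 ± 0.14 (limma, adjusted p = 0.244).

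In wild type Ly6G+ cells against wild type HSPC, 5 of 10 mitophagy genes rose, against 16.9% of all genes, and 2 fell, against 22.9%, with a median of 0.76 against -0.08 over all genes. Map1lc3b, which marks autophagosomes, rose by 1.63 ± 0.20 (limma, adjusted p = 0.00105) and Bnip3, a mitophagy receptor, by 1.59 ± 0.22 (adjusted p = 0.00160), while Phb2 fell by 1.20 ± 0.18 (adjusted p = 0.00183). Of 9 biogenesis genes, with the same backgrounds, 4 fell, with Pprc1 lowest (-1.83 ± 0.29; limma, adjusted p = 0.00220), and Esrra rose by 0.60 ± 0.18 (adjusted p = 0.0282).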
